A study of Mus musculus with 9 samples.

Results

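The 8 genes Dyrk3, Inka2, Map3k20, Mybl1, Zfp469, Abcb1b, Fat1 and Piezo1 were followed across 9 RNA-seq libraries of mouse melanocyte stem cells. They were chosen by symbol, out of 55359 genes in the table, because their RNA was high in the irradiated libraries and because they sit outside the better known lists of damage and inflammation genes. Melanocyte stem cells are the reserve of pigment cell precursors in the hair follicle. Sorting by fluorescence isolated them from the skin of mice heterozygous for a knocked-in reporter, Dct-H2B-GFP KI/+, in which a fluorescent histone is tied to the melanin synthesis gene Dct. All 3 groups, controls included, carry this reporter. Each group has 3 libraries: mice given vehicle, mice given ionizing radiation (IR) of 5 Gy, and mice given the carcinogenic hydrocarbon DMBA. The age and sex of the animals, the time from treatment to sorting, the dose and route of DMBA, and any pooling of animals are not stated by the labels. Nothing in the labels says that replicates are separate animals, so p-values measure the spread between these libraries, which may be technical.

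The choice rested on IR levels, so the comparisons of IR with vehicle and of IR with DMBA are described for these genes with no test. The comparison of DMBA with vehicle was tested. It shares the vehicle libraries with the contrast behind the choice. Tests on pathway partners and family relatives are given for both treatments. IR levels did not pick these genes one by one, but the lists were drawn up with earlier results of these data known. In bulk RNA, fewer cells that express a gene and less RNA per cell cannot be told apart.

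The proteins have little in common in their known work. DYRK3 is a protein kinase that dissolves stress granules, the RNA and protein droplets that form in stressed cells, and so releases mTORC1 signalling. MAP3K20, also called ZAK, is a kinase that senses stalled or colliding ribosomes and switches on the p38 and JNK stress kinases. INKA2 binds and inhibits the kinase PAK4, which acts on the actin skeleton. MYBL1 is a transcription factor of the MYB family, best known from male meiosis. ZFP469 is a large zinc finger protein, and loss of its human counterpart thins the cornea. ABCB1B is 1 of the rodent P-glycoproteins, pumps that expel drugs from the cell. FAT1 is a giant atypical cadherin tied to cell polarity and the Hippo pathway, and PIEZO1 is an ion channel opened by membrane tension.

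Although the genes were picked as lying outside standard pathways, 2 of the 8, Map3k20 and Abcb1b, carry a process term for radiation in the gene ontology annotation of the deposited table. None of the 8 has a term there that names p53 or NF-kB (0 and 0 genes), and 6 have any term at all. The share of all genes with such terms was not computed, so these counts cannot be weighed. As background, human INKA2 has been described as a target of p53, so the label is loose for that gene.

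Promoter sequence was available for 6 of the 8 genes, in 8 windows of 250 bases before to 50 bases after an annotated start (RefSeq, GRCm38.p6). The 3 windows shown are those of Dyrk3, whose IR level stood farthest above every other library, and of Inka2 and Abcb1b, the only windows of the 8 with a match to the p53 half-site consensus. Sequences run 5′ to 3′ on the strand of the gene. Capitals mark matches to the p53 half-site consensus, the NF-kB consensus, the AP-1 site, the CCAAT box and the TATA box on either strand. The p53 and NF-kB consensus sequences are given by name, and the letters of the others after the sequences.
Dyrk3, chr1:131138185-131138484, minus strand: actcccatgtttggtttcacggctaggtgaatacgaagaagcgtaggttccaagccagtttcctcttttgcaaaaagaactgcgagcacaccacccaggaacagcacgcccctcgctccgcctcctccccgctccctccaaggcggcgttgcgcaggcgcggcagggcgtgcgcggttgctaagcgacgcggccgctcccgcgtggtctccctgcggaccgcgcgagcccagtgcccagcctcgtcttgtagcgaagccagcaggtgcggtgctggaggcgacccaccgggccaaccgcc
Inka2, chr3:105705208-105705507, plus strand: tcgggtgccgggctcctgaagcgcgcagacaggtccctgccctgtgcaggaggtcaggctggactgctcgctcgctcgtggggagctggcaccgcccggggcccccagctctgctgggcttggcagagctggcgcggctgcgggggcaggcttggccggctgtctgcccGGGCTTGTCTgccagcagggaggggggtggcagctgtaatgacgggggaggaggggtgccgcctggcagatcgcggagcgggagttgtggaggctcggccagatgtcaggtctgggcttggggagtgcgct
Abcb1b, chr5:8797897-8798196, plus strand: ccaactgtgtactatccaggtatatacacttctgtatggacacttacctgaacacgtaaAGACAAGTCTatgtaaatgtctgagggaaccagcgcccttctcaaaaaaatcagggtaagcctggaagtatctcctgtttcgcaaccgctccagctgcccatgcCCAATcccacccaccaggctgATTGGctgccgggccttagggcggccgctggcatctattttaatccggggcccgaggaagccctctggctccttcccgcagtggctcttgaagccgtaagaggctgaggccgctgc
In Inka2 the p53 half-site match starts 81 bases before the annotated start, and a second window of this gene, around another start, holds none. In Abcb1b the match starts 191 bases before the start. Such a match was in 2 of the 8 windows and in 8.36% of all 32817 windows of this length.

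Other motifs were counted in the same 8 windows, which are too few to weigh against the shares over all windows. The paired p53 core, CATG followed after 6 bases by another CATG, which can overlap the consensus, was in 0 of the 8 windows and in 0.71% of all windows. The NF-kB consensus was in 0 of 8 (8.46% of all), the AP-1 site TGANTCA in 0 (7.81%) and the pigment cell E-box CATGTG in 0 (14.2%). The core bound by the aryl hydrocarbon receptor, GCGTG, was in 3 of the 8 windows, 1 of Dyrk3 and 2 overlapping windows of Map3k20, and in 32.4% of all. The GC box GGGCGG was in 4 (35.6%), the CCAAT box, read as those letters, in 3 (37.4%), the TATA box, read as TATAA, in 3 (24.9%) and the core TGACG in 1 (20.8%). All were searched on both strands. A match is a run of letters, not a bound site, and windows without one say nothing of more distant sequence.

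Sequencing gave between 6938406 and 8156905 counts per library, and 16051 genes passed the count filter. All 8 genes passed it, each with at least 3 libraries outside the IR group above the filter's floor. Transcripts of melanocytes were abundant, with 8 markers summing to between 1510 and 2130 FPKM (counts scaled by exonic length and library total) in the 9 libraries. Basal keratinocyte RNA was present too and was uneven: its 10 markers summed to 1164 to 1732 FPKM in the vehicle group, to 614.1 to 2946 in the IR group and to 1974 to 3019 in the DMBA group. IR 1 held the highest and IR 2 the lowest IR value. For differentiated epidermis markers the sums were 475.0 to 567.5 FPKM (vehicle), 210.8 to 1403 (IR) and 1185 to 1780 (DMBA). Fibroblast markers summed to at most 1.46 FPKM in any library, with Lum and Mfap5 at 0 throughout, endothelial markers to at most 3.88 and leukocyte markers to at most 5.01, the last in IR 1. Schwann and glial markers summed to between 58.8 and 76.1 FPKM, with Mal at 0 throughout.

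In every one of the 8 genes, each IR library lay above all 6 other libraries, a pattern found in 3.4% of genes tested and one that the choice of the genes favours. Between IR and vehicle, 0.735% of all genes tested were called (edgeR adjusted p under 0.05), and 0.71% were called higher in IR. The median log2 fold change of the 8 genes was 3.16 for IR against vehicle and 2.58 for IR against DMBA, where the median of all genes tested was -0.0020 and -0.017. For IR against DMBA, 0.978% of all genes were called. The sizes spread widely, from 2.03-fold in Piezo1 to 32.5-fold in Dyrk3.

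**Figure D1:**
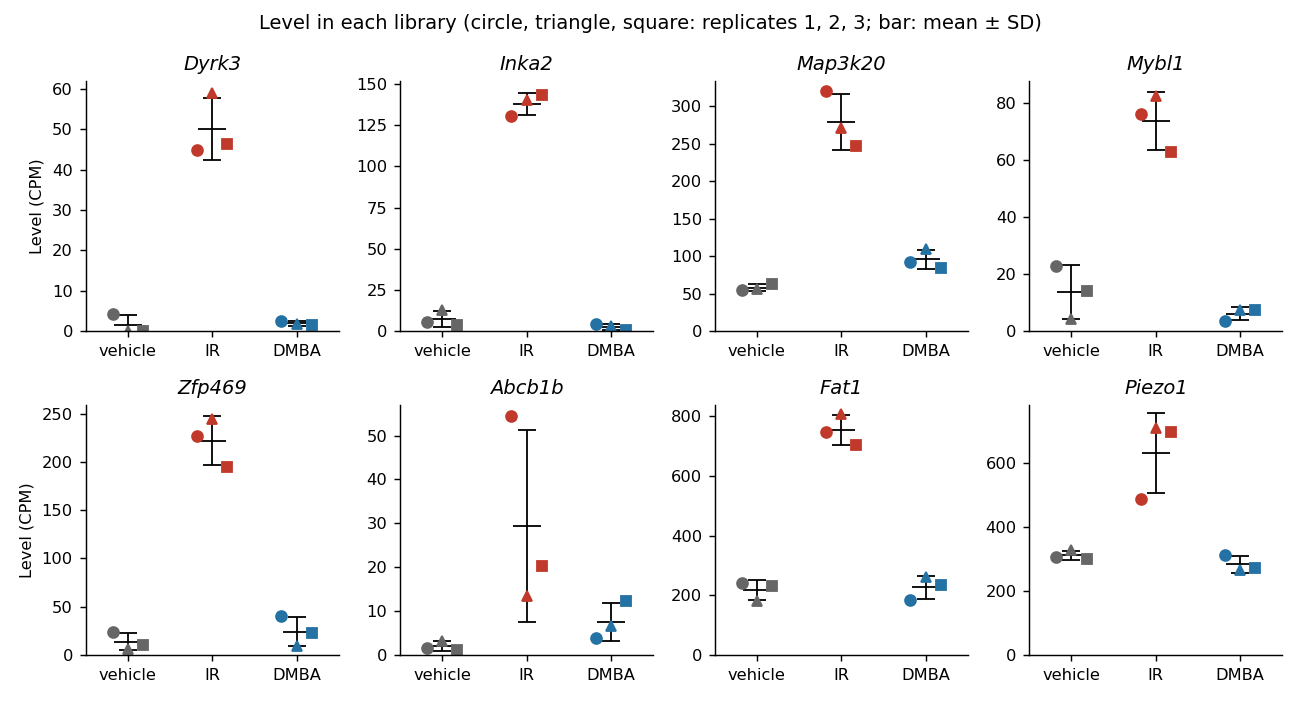
Level of each gene in CPM (counts scaled to library size by TMM; linear axes from 0) in the 3 vehicle, 3 IR and 3 DMBA libraries, 1 panel per gene; symbols are libraries and bars are mean ± SD. The IR points stand apart in each panel, least so in Abcb1b, where IR 2 at 13.4 CPM lies close to DMBA 3 at 12.3 CPM.

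The kinases Dyrk3 and Map3k20 began from different levels. Dyrk3, on chromosome 1 (131055192 to 131066077, minus strand, deposited coordinates), had 4.30, 0 and 0.144 CPM in vehicle 1, 2 and 3. After IR it had 44.9, 58.9 and 46.4 CPM, and after DMBA 2.57, 1.67 and 1.51 CPM. The IR libraries were alike and at least 10.4 times as high as any other library, whereas the vehicle libraries were close to empty except for vehicle 1. The fitted log2 fold change for IR against vehicle was 5.02 ± 0.81 (SE). Of 36 vehicle counts, 35 came from vehicle 1. Without it 1 count remained over 2 libraries and the fitted value was 9.18, which at so few counts depends on the fit. The size of the Dyrk3 difference thus rests on 1 vehicle library.

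Map3k20, on chromosome 2 (72115981 to 72272954, plus strand), was already well expressed in vehicle, at 55.1, 56.0 and 62.9 CPM. It had 320.0, 270.2 and 246.2 CPM after IR and 92.4, 110.0 and 84.4 CPM after DMBA. It was highest in IR 1 and lowest in IR 3, and the 3 groups did not overlap each other. The log2 fold change was 2.27 ± 0.18 (SE) for IR against vehicle and 1.54 ± 0.17 for IR against DMBA. The table lists a pseudogene, Rpl36a-ps4, and a 7SK copy inside Map3k20 on its strand, with at most 34 counts in any group.

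Inka2, the PAK4 inhibitor gene on chromosome 3 (105611915 to 105628158, plus strand), had the most even IR values. Its levels were 130.6, 139.9 and 143.3 CPM after IR, against 5.4, 12.8 and 3.74 CPM in vehicle and 4.37, 3.21 and 0.824 CPM after DMBA. The lowest IR library was 10.2 times the highest other library, which was vehicle 2. The log2 fold change was 4.23 ± 0.43 for IR against vehicle and 5.61 ± 0.48 for IR against DMBA, the largest of the 8 genes in the latter comparison in the fit over all 9 libraries.

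The nuclear factors Mybl1 and Zfp469 had low and uneven levels outside IR. Mybl1, on chromosome 1 (9737640 to 9770434, minus strand), had 22.8, 4.17 and 14.2 CPM in vehicle, 76.0, 82.3 and 62.7 CPM after IR and 3.60, 7.43 and 7.55 CPM after DMBA. Its lowest IR library was 2.75 times its highest other library, vehicle 1, and its log2 fold change for IR against vehicle was 2.42 ± 0.44. Zfp469, on chromosome 8 (122985359 to 122999389, plus strand), had 23.9, 6.60 and 10.5 CPM in vehicle, 227.3, 244.2 and 194.4 CPM after IR and 39.9, 9.49 and 23.2 CPM after DMBA. The spread within vehicle and DMBA, 3.63 and 4.21 times from lowest to highest, was larger than the 1.26 times within IR. The log2 fold change of Zfp469 was 4.01 ± 0.45 for IR against vehicle and 3.20 ± 0.43 for IR against DMBA. Fibroblast markers summed to 0.040 to 1.46 FPKM over all libraries, and their part in the Zfp469 level was not tested.

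The membrane protein genes differed in how firmly they stood apart. Fat1, on chromosome 8 (45388484 to 45505294, plus strand), had 239.5, 180.1 and 231.9 CPM in vehicle, 748.5, 806.9 and 704.7 CPM after IR and 185.4, 261.9 and 233.7 CPM after DMBA. Vehicle and DMBA libraries of Fat1 overlapped, and the IR libraries were clear of both, with a log2 fold change of 1.79 ± 0.17 for IR against vehicle. Piezo1, also on chromosome 8 (123208437 to 123278068, minus strand), had 307.3, 327.1 and 301.3 CPM in vehicle, 487.0, 710.7 and 699.8 CPM after IR and 314.3, 265.9 and 272.2 CPM after DMBA. Its log2 fold change was 1.02 ± 0.16, the smallest of the 8. IR 1, with the most keratinocyte RNA of the IR libraries, had the lowest Piezo1 of the 3. The part of keratinocyte RNA in that value was not tested.

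Abcb1b, the drug pump gene on chromosome 5 (8848147 to 8916315, plus strand), was the least even of the 8 within the IR group. It had 1.60, 3.23 and 1.01 CPM in vehicle, 54.4, 13.4 and 20.3 CPM after IR and 3.85, 6.54 and 12.3 CPM after DMBA. IR 1 was 4.05 times IR 2, and the lowest IR library was only 1.09 times the highest DMBA library. The log2 fold change for IR against vehicle was 3.90 ± 0.65, and 3.11 without IR 1. For IR against DMBA it was 1.95 ± 0.58, and 1.16 without IR 1. IR 1 also had the highest sums of basal keratinocyte (2946 FPKM), differentiated epidermis (1403 FPKM) and leukocyte markers (5.01 FPKM) in its group. The part of other cells in the Abcb1b level was not tested.

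**Figure D2:**
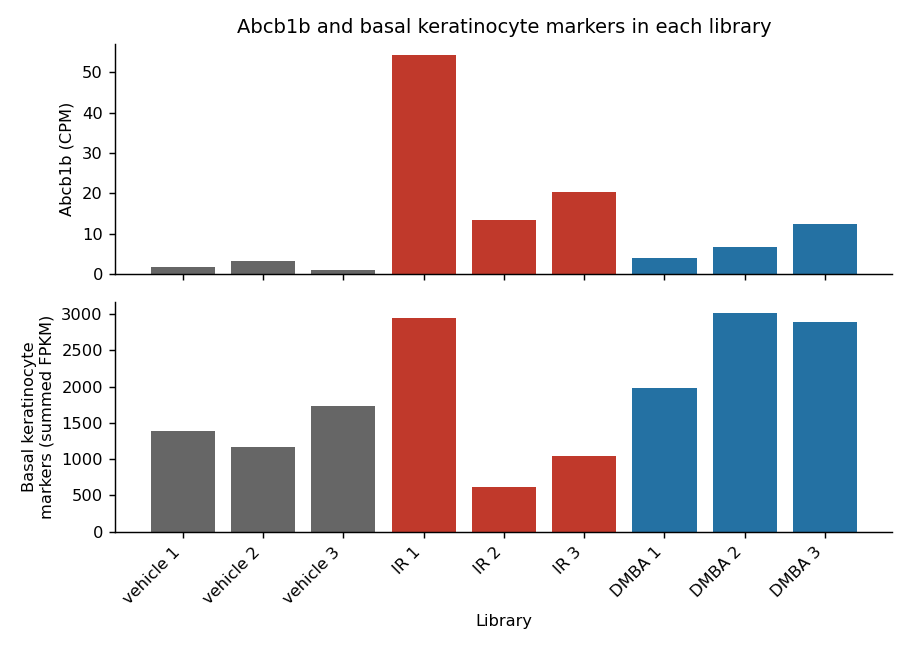
Abcb1b in CPM (top) and the summed FPKM of 10 basal keratinocyte markers (bottom), 1 bar per library. IR 1 is high in both panels, while IR 2 has 13.4 CPM of Abcb1b with the smallest marker sum, 614.1 FPKM. DMBA 1, 2 and 3 have marker sums of 1974, 3019 and 2893 FPKM with 3.85, 6.54 and 12.3 CPM of Abcb1b.

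Abcb1b has close relatives, so its count was checked for shared sequence. Of the 50-base stretches of its longest transcript (GENCODE vM21), 18.3% occur in other genes, nearly all of them in Abcb1a (18.04%). The share was at most 0.726% for the other 7 genes, although the longest Zfp469 transcript in that release, 3082 bases, covers a small part of the 12777 exonic bases in the table. Abcb1a, the neighbouring pump gene, had 48 counts over the vehicle, 32 over the IR and 6 over the DMBA libraries, against 44, 675 and 171 for Abcb1b. The third copy of the cluster, Abcb4, had 0 counts in each library. No source used here gives the read length or the handling of reads with several matches.

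Per length, the order of the levels shifted with IR. In vehicle libraries the mean FPKM ran from Piezo1 (31.1 ± 1.23, SD, n = 3) through Fat1 (13.8 ± 2.12), Map3k20 (5.65 ± 0.41) and Mybl1 (2.53 ± 1.73) to Inka2 (1.51 ± 0.99), Zfp469 (1.06 ± 0.71), Dyrk3 (0.463 ± 0.768) and Abcb1b (0.240 ± 0.144). The first 4 did not overlap each other in FPKM, whereas Mybl1, Inka2, Zfp469 and Dyrk3 overlapped their neighbours in this order. After IR the order was Piezo1 (62.5 ± 11.5 FPKM), Fat1 (47.4 ± 3.00), Inka2 (28.4 ± 0.94), Map3k20 (27.0 ± 4.12), Zfp469 (17.1 ± 1.94), Dyrk3 (15.5 ± 2.15), Mybl1 (13.4 ± 1.82) and Abcb1b (3.65 ± 2.79). Here Piezo1 overlapped Fat1, Inka2 overlapped Map3k20, and Zfp469, Dyrk3 and Mybl1 overlapped in turn. Inka2 thus moved from between the 15.1 and 36.1 percentiles of FPKM among genes tested in vehicle libraries to between the 90.7 and 91.9 percentiles in IR libraries, whereas Piezo1 was at or above the 92.3 percentile in both groups.

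After DMBA, none of the 8 genes passed the test against vehicle (edgeR, 0 called), where 0.0374% of all genes tested were called. DESeq2 called 1 of them, Map3k20 (adjusted p = 0.0457), among 23 genes in all. Limma on log2(FPKM + 1) called 0 of the 8 and 1 gene in all. At an unadjusted p under 0.05 there were 4 of the 8, against 6.7% of all genes, and they pointed both ways. Map3k20 had a log2 ratio of 0.72 ± 0.17 (SE; edgeR adjusted p = 0.414) and Abcb1b of 1.95 ± 0.62 (edgeR adjusted p = 0.565). In these 2 genes every DMBA library was above every vehicle library, as in 7.51% of genes tested. Inka2 had a value of -1.37 ± 0.45 (edgeR adjusted p = 0.571) and Mybl1 of -1.15 ± 0.45 (edgeR adjusted p = 0.661), with overlapping groups in both. Without the count filter edgeR called Inka2 (adjusted p = 0.00376) and Map3k20 (adjusted p = 0.0376), among 159 genes in all. Basal keratinocyte markers summed to 1974 to 3019 FPKM in the DMBA libraries and to 1164 to 1732 in vehicle. Differentiated epidermis markers were higher in every DMBA library too. The part of keratinocyte RNA in the values for DMBA against vehicle was not tested.

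Of the 8 genes, 5 had a value above 0 for DMBA against vehicle, as did 50.5% of all genes tested. Apart from Inka2 and Map3k20, no gene of the 8 was called under any setting tried. Zfp469 had a log2 ratio of 0.82 ± 0.42 (edgeR adjusted p = 0.748) and Dyrk3 of 0.33 ± 0.80 (edgeR adjusted p = 0.978). For Fat1 it was 0.064 ± 0.16, with a 95% interval from -0.28 to 0.40, and for Piezo1 -0.13 ± 0.16, with an interval from -0.47 to 0.20 (edgeR adjusted p = 0.979 and 0.927). The interval for Dyrk3, whose counts outside IR were few, ran from -1.36 to 2.01. Over the 8 genes the median log2 fold change for DMBA against vehicle was 0.20, where it was 0.0056 over all genes tested.

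**Figure D3:**
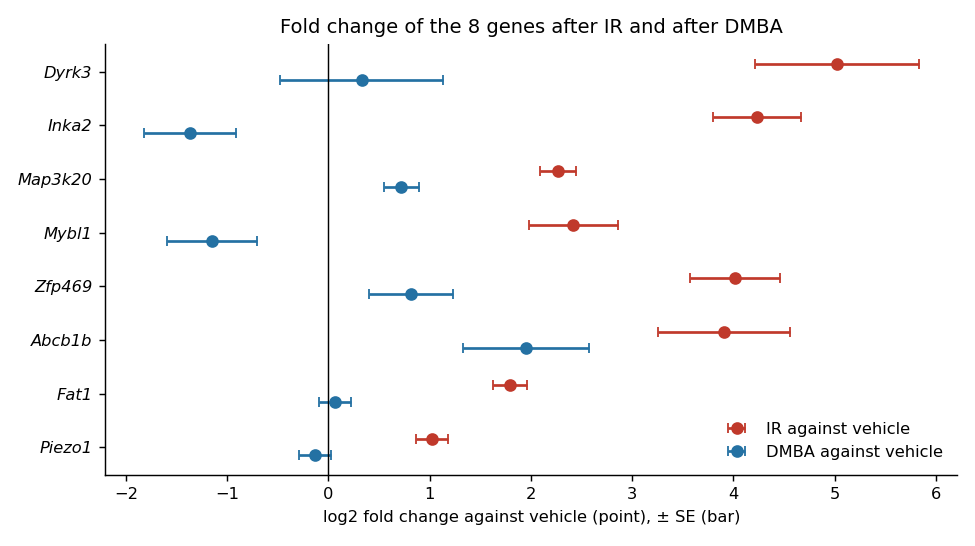
Fitted log2 fold change against vehicle for IR (red) and DMBA (blue), with SE bars, 1 row per gene; both share the vehicle libraries. IR values run from 1.02 in Piezo1 to 5.02 in Dyrk3, while DMBA values lie on both sides of 0, from -1.37 in Inka2 to 1.95 in Abcb1b.

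Family relatives were too few to set a count of calls against the 0.735% of all genes called. Of 20 listed paralogs, 14 were tested, and edgeR called 0 in either direction after IR, with 1 above and 1 below 0 among those with an unadjusted p under 0.05 (8.26% of all genes tested). Their median log2 fold change was 0.033. Among the DYRK kinases, Dyrk1a had a log2 ratio of 0.043, Dyrk1b of -0.11 and Dyrk2 of 0.32 (edgeR adjusted p = 0.993, 0.976 and 0.795). Dyrk4 was too low to test. Inka1, the other INKA gene, averaged 6.33 ± 1.76 CPM after IR against 3.25 ± 0.29 in vehicle (edgeR adjusted p = 0.836).

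In the MYB family, Myb had a log2 ratio of -0.76 and Mybl2 of 0.31, both from few counts (edgeR adjusted p = 0.974 and 0.993). Of the mixed lineage kinases related to Map3k20, Map3k11 averaged 143.0 ± 11.0 CPM after IR against 107.8 ± 11.8 in vehicle but was not called (edgeR adjusted p = 0.538). Map3k9, Map3k10, Map3k12 and Map3k13 had log2 ratios of -0.997, 0.16, -0.11 and 1.23 (edgeR adjusted p = 0.886, 0.976, 0.994 and 0.784), and Map3k19 and Map3k21 were too low to test. Fat4 averaged 63.7 ± 19.2 CPM after IR against 91.1 ± 11.7 in vehicle, and Fat2 49.3 ± 47.6 against 48.5 ± 11.6 (edgeR adjusted p = 0.591 and 0.998). Abcb1a had a log2 ratio of -0.56 (edgeR adjusted p = 0.986). Fat3 and Piezo2 were too low to test, Piezo2 with 15, 4 and 8 counts over the vehicle, IR and DMBA libraries.

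Pathway partners of the 8 genes gave too few calls to set against the share over all genes. Over all 9 lists, 108 of 124 genes were tested, and 1 rose after IR and 0 fell by edgeR, where 0.735% of all genes tested were called. With an unadjusted p under 0.05 there were 7 above 0 and 4 below, where 8.26% of all genes tested had such a p, and the median log2 fold change was 0.040. DESeq2 called 1 as well, and limma on log2(FPKM + 1) called 0. The gene that rose was Plod2, which encodes a lysyl hydroxylase that shapes collagen cross-links. It had 29.1, 33.8 and 25.4 CPM in vehicle, 58.6, 84.9 and 67.6 CPM after IR and 16.6, 18.7 and 24.4 CPM after DMBA (log2 fold change 1.26 ± 0.26 for IR against vehicle, edgeR adjusted p = 0.0221). Its call was lost when vehicle 1, vehicle 3, IR 2 or IR 3 was left out (adjusted p between 0.0768 and 0.138).

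By list, the 16 tested genes of the ZAK stress kinase cascade had 2 above and 2 below 0 with an unadjusted p under 0.05, and a median of -0.029 on the log2 scale. Over all genes tested, 8.26% had such a p, and single lists are too short to weigh against that share. Mapkapk3, a kinase downstream of p38, averaged 91.0 ± 13.3 against 57.9 ± 7.55 CPM, and Mapk12, a p38 gene, 5.70 ± 2.76 against 13.3 ± 5.42 CPM (edgeR adjusted p = 0.265 and 0.542). The 22 genes of Fat, Dachsous and Hippo signalling had 3 above and 1 below 0 with such a p, and a median of 0.16. Yap1, the coactivator that Hippo restrains, averaged 188.2 ± 12.4 against 140.6 ± 32.0 CPM, and the scaffold gene Sav1 77.2 ± 6.99 against 56.7 ± 4.07 CPM (edgeR adjusted p = 0.505 and 0.564). Among 11 mechanosensitive channel genes 1 had such a p, below 0: Trpv4, with 24.0 ± 10.04 against 37.8 ± 3.96 CPM (edgeR adjusted p = 0.572). Pkd2, which followed it by p, had a log2 ratio of -0.29.

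The remaining lists held no gene at an unadjusted p under 0.05 other than Plod2. MuvB, which MYB proteins join, and DREAM are complexes that time cell cycle genes. In their 12 tested subunits the smallest p values belonged to Rbl2 (log2 fold change -0.26) and Lin9 (0.64). In the 11 PAK kinases and effectors they belonged to Pak2 (0.26) and Pak3 (0.58), and in the 11 stress granule and mTORC1 genes to Tial1 (-0.27) and Pabpc1 (0.18). In the 6 drug efflux transporters they belonged to Abcg2 (-0.33) and Abcc10 (-0.17). For DMBA against vehicle, edgeR, DESeq2 and limma called 0 of the 108, where edgeR called 0.0374% of all genes tested. Those with an unadjusted p under 0.05, as 6.7% of all genes had, were 4 above 0 and 5 below.

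**Figure D4:**
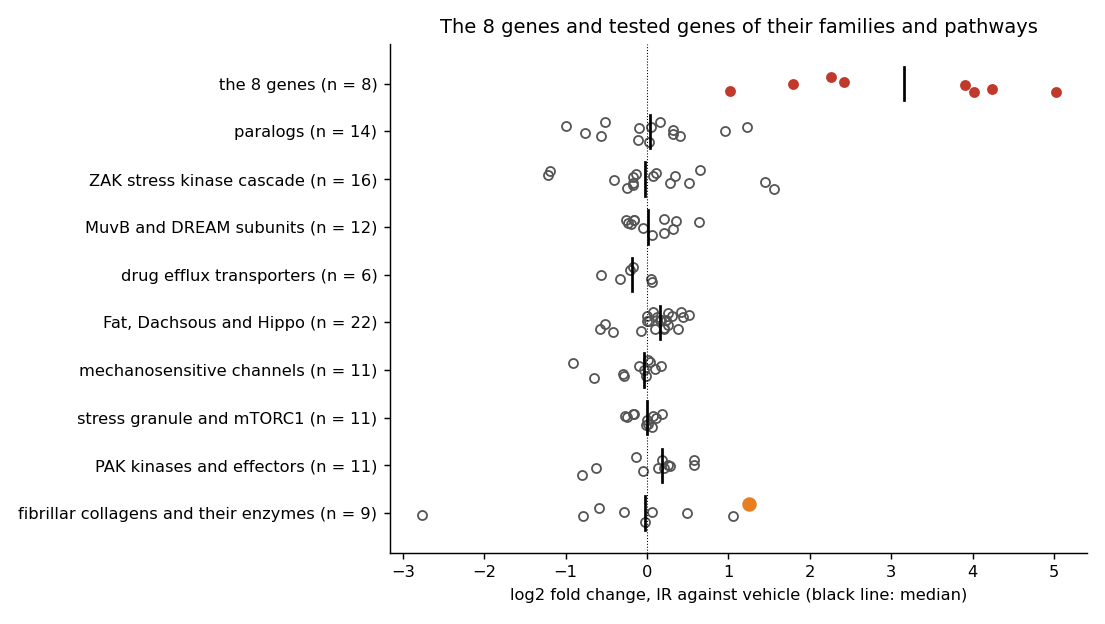
Log2 fold change for IR against vehicle of the 8 genes (red, chosen for their IR level) and of the tested genes of 9 lists, 1 point per gene, with the median as a black line; a gene can be on 2 lists. List medians lie between -0.19 and 0.19, and the single filled orange point is Plod2, the 1 list gene called.

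Of the neighbouring genes in the deposited coordinates, edgeR called 0 for IR against vehicle, where 0.735% of all genes tested were called. For IR against DMBA it called 1, Eif2d, where 0.978% of all genes tested were called. The tested neighbours were too few to weigh either count. Eif2d, a translation factor gene 14840 bases from Dyrk3 on the other strand, had 1467 counts over the IR libraries against 656 over vehicle and a log2 ratio of 1.19 ± 0.28 (edgeR adjusted p = 0.0664). It averaged 66.2 ± 19.2 CPM after IR against 22.5 ± 2.65 after DMBA, a log2 value of 1.55 ± 0.29 (edgeR adjusted p = 0.00759). Zfpm1, 9490 bases beyond Zfp469 on its strand, had a log2 ratio of 0.96 ± 0.32 (edgeR adjusted p = 0.311). Banp, on the other side of Zfp469, had 0.35 (edgeR adjusted p = 0.816). Beside Map3k20, Rapgef4 and Cdca7 had -0.12 and -0.85 (edgeR adjusted p = 0.967 and 0.789). Vcpip1, beside Mybl1, had 0.094, and Ddx20 and Gm43848, beside Inka2, had -0.26 and -1.25 (edgeR adjusted p = 0.9754, 0.954 and 0.923).

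Ctu2 overlaps Piezo1 by 2441 bases on the opposite strand, so reads there cannot be told apart unless counting used strand, which is not stated. Its log2 fold change was -0.48, opposite to that of Piezo1 (edgeR adjusted p = 0.745). Rnf166 and Cdt1, on either side of Piezo1, had -0.88 and 0.40 (edgeR adjusted p = 0.561 and 0.886), and Gm26497, which overlaps it by 107 bases, -2.23 (0.852). An entry under the symbol Galnt2l spans Zfp469 and Piezo1 and had 0 counts. The genes overlapping Abcb1b (Gm5106 and 7330423F06Rik) and Fat1 (Gm2366), and the genes flanking Fat1 (Gm9908 and AY512931), had at most 7 counts in a group. The remaining flanking entries, a 7SK copy beside Dyrk3 and Gm29520 beside Mybl1, had 0 counts.

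Profiles were compared with 12854 other genes tested, leaving out those with no symbol or with the symbol of a predicted gene. Nearest to the mean of the 8 were Krt71, Relb, Csf1, Cgref1 and Trp53inp1. Likeness was the root mean square difference of log2 CPM over the 9 libraries, each gene centred on its own mean, and it was 0.28, 0.35, 0.41, 0.41 and 0.44 for these genes against a median of 1.55 over all compared. Relb encodes an NF-kB subunit, Csf1 a macrophage growth factor, and Trp53inp1 a nuclear protein induced by p53. Krt71, an inner root sheath keratin gene, and Cgref1 had 46 and 47 counts over the IR libraries and 0 in all others, so their profiles rest on few reads. Among the 8 genes themselves the closest pair was Map3k20 and Fat1 (0.32) and the farthest Dyrk3 and Piezo1 (2.34).

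Single genes had single nearest profiles. Cdkn1a, the p21 gene and a classical p53 target, was nearest to both Fat1 (difference 0.17) and Map3k20 (0.24). For Inka2 it was Gtse1 (0.76), for Zfp469 Aen (0.67) and for Abcb1b Ddias (0.71). Lpin1, a phosphatidate phosphatase gene, was nearest to Piezo1 (0.11), with 559.4 ± 102 CPM after IR against 255.1 ± 26.1 in vehicle. Fsd2 was nearest to Dyrk3 (1.30) and Cd79a, a B cell gene, to Mybl1 (0.48), but these had only 113 and 78 counts over the IR libraries. The measure describes shape over 9 libraries in which IR stands apart, and genes with a like IR rise are near each other by construction.

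**Figure D5:**
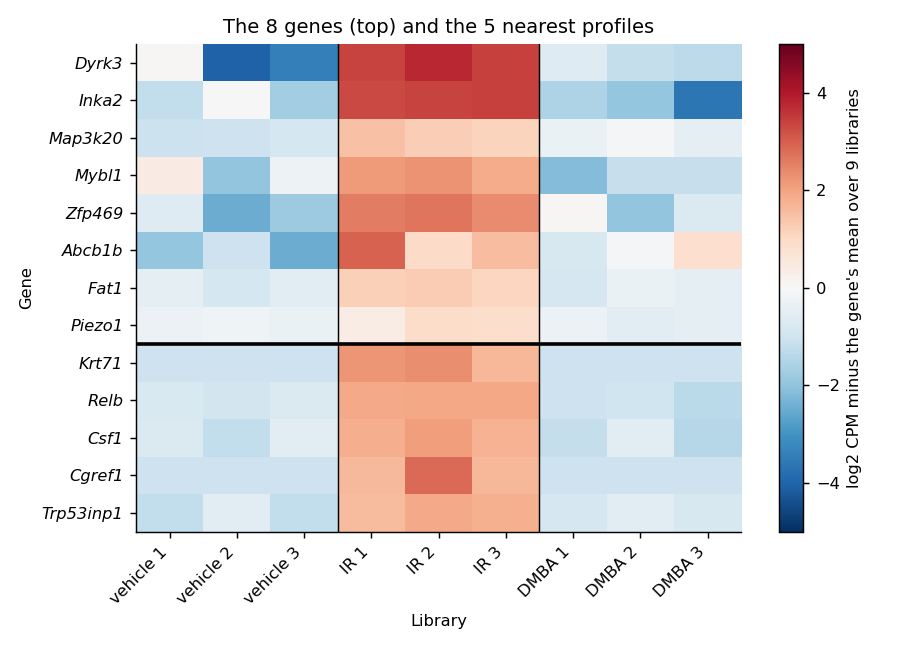
Log2 CPM of the 8 genes (above the line) and of the 5 genes with the nearest profile (below), each minus its own mean over the 9 libraries, as colour; columns are libraries by group. Every row is red in the IR columns, and the palest IR cell of the 8 genes is Piezo1 in IR 1.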

How the data were processed

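Gene expression was profiled by RNA-seq in 9 libraries of sorted mouse melanocyte stem cells, grouped 3 by 3 from the sample titles. Per the labels' protocols, RNA was extracted on columns (RNeasy Mini) and a stranded SMARTer kit was used for the libraries. The submitters' processing notes name HTSeq 0.6.1, HISAT2 2.0.1, cutadapt 1.9.1 and bcl2fastq 2.17.1.14, with no role or order. The notes and labels used here give no build, annotation or strand use for the counting. The deposited table holds whole-number counts per gene with no normalization, and FPKM that the authors derived from them. Recomputing FPKM from counts, exonic sizes and column sums gave each value within 0.0051 in 100% of cells. All sample columns were mapped (0 left aside). Deposited coordinates differ from GRCm38, so promoter windows carry their own.

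Counts were fitted with edgeR 4.0.16 (R 4.3.3): filterByExpr with a minimum count of 10, TMM, 1 mean per group over 9 libraries, and two-sided quasi-likelihood tests with Benjamini-Hochberg adjustment over all 16051 genes, called under 0.05. Fold changes are log2 values, each SE is the fold change divided by the square root of F, and intervals use the test's degrees of freedom. Log2 CPM used a prior count of 2. The code was tested on simulated data. Alternatives changed the filter, the scaling (RLE), the test (DESeq2 1.42.0; limma 3.58.1 on log2(FPKM + 1), where at least 3 libraries reach an FPKM of 1, and with 0.1), the libraries and the replicate block. Python 3.11.15, pandas 2.3.3 and matplotlib 3.10.9 were used.

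The 8 genes, the lists and the tests were chosen with earlier results of these data known. Named genes are the 8, listed paralogs, list genes called by edgeR and the 2 with the smallest p per list, flanking or overlapping genes, and the nearest profiles. A gene under this rule is not reported here. Of the listed names, Lin54 was not matched by symbol. The intervals given come from the edgeR fit, so they include the spread between libraries.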

Additional observations from a re-analysis of the deposited data

How the results depend on the processing

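The rise of all 8 genes with IR kept its direction against vehicle and against DMBA in each alternative run. The choice of the genes by IR level favours this, so it is not a test of them. The median log2 fold change of the 8 for IR against vehicle was 2.11 by limma on log2(FPKM + 1), with or without its filter, which compresses low genes, and between 2.75 and 3.40 with each library left out. For IR against DMBA it was between 2.34 and 2.84 with each library left out. The count called for IR against vehicle, 118, was 236 without a filter, 251 by DESeq2, 69 by limma on log2(FPKM + 0.1), 49 by limma without a filter, 63 with 7 libraries and between 76 and 131 with each library left out. The set of 7 libraries, chosen after seeing the data, leaves out vehicle 2 and IR 2, the least correlated with the others (0.873 and 0.871 on average). The count for DMBA against vehicle, 6, was 159 without a filter, 23 by DESeq2, 1 by each limma setting, 44 with only the 2 groups compared and between 2 and 25 with each library left out. For IR against DMBA, 157 genes were called, 371 without a filter, 310 by DESeq2, 89, 73 and 58 by limma with 1, with 0.1 and without a filter, and between 96 (without DMBA 3) and 421 (without IR 1). The cause was not tested.

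For DMBA against vehicle, 2 of the 8 genes were among the 159 called without a filter and 1 among the 23 called by DESeq2. With each library left out, 0 of the 8 were called. The value for Dyrk3 became -0.25 without vehicle 2, -0.18 without vehicle 3 and -0.24 with 7 libraries, and that for Fat1 -0.068 without vehicle 2, -0.055 without DMBA 2 and -0.055 with 7 libraries (none called). Over all libraries left out in turn, Dyrk3 ran from -0.25 to 4.49 and Fat1 from -0.068 to 0.19. Zfp469 ran from 0.25 without DMBA 1 to 1.51 without vehicle 1, Inka2 from -1.84 to -0.71, Mybl1 from -1.60 to -0.57 and Abcb1b from 1.40 to 2.504. The 1 list gene called after IR, Plod2, became 0 by each limma setting and with 7 libraries, and 0 to 1 with each library left out. With the replicate block 107, 5 and 142 genes were called for IR against vehicle, DMBA against vehicle and IR against DMBA, and Plod2 remained the 1 list gene. Deviations of same-numbered libraries correlated between -0.087 and 0.042, so they shared little. These values cannot tell whether same-numbered samples were collected or handled together. Depth limits Dyrk3 and Abcb1b, whose vehicle sums were 36 and 44 counts.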
